A study of Mus musculus with 4 samples.

Results

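The Wnt receptors Fzd1 to Fzd8 and their co-receptors Lrp5 and Lrp6 were followed in sorted cells of the collecting duct and ureteric bud, taken from newborn mice with and without the (pro)renin receptor (PRR). They were found by matching the accession of each non-control probe on the array to a mouse RefSeq symbol. All 10 genes were on the array, with 12 probes, among 16355 genes matched to a symbol. Fzd3 and Fzd7 had 2 probes each, and the brighter one stood for the gene. In the comparison with 2 arrays per genotype, none of the 10 receptors differed between knockout and wild type beyond the spread between arrays. Fzd1 had the largest difference of the 10: it was lower in both knockout channels than in every wild-type channel, at 0.721 of the wild-type level in Cy5. Fzd6 and Lrp5 were slightly higher in both knockout channels than in every wild-type channel, and the other 7 receptors overlapped wild type in at least 1 channel. Of all genes, 12.2% lay above every wild-type channel and 7.96% below, so the receptor shares were near those of all genes. Knockout was read in the dye Cy5 alone and wild type in Cy5 and Cy3, so these orders mix genotype with dye.

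The cells carried enhanced green fluorescent protein and Cre recombinase from a Hoxb7 promoter transgene, which is active in the ureteric bud and the collecting duct that forms from it. Green cells were sorted at postnatal day 1. The knockout pool came from HoxB7CreEGFP+ mice with PRR flox/flox alleles, and the wild-type pools, WT1 and WT2, came from CreEGFP+ mice with PRR+/+ alleles, so both genotypes carried the transgene. Cells were pooled, and 0.5 µg of total RNA went into each labelling reaction. The 4 two-colour arrays lay on 1 slide and were read in 1 scan. On the 2 arrays called KO_vs_WT here, knockout RNA was labelled with the dye Cy5 and wild-type RNA with Cy3, WT1 (pool 1) on replicate 1 and WT2 (pool 2) on replicate 2. On the 2 self arrays, WT_self, 1 wild-type pool was labelled with both dyes, pool 1 on replicate 1 and pool 2 on replicate 2. Groups were taken from the source given for each channel, because the array titles name the self arrays as knockout and the KO_vs_WT arrays as wild type. If the titles were right, every direction between knockout and wild type in Cy5 would turn. The titles name whole arrays, so they would leave no array with both knockout and wild-type RNA. Atp6ap2 was lower in the channels whose source is knockout. The descriptions also exchange the pools of the self arrays. Pool numbers follow the sources here, and the Cy3 profile of KO_vs_WT replicate 2, labelled pool 2, correlated across genes at 0.996 with Cy3 of WT_self replicate 2 and 0.951 with that of WT_self replicate 1. If the descriptions were right, pool 1 and pool 2 would be exchanged in the values of the self arrays. The sources used here do not say whether replicates were separate animals or separate pools of knockout cells. The p-values therefore rest on variation among these 4 arrays alone, part or all of which may be technical.

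Frizzled proteins are receptors that span the membrane several times and bind Wnt ligands through a cysteine-rich domain outside the cell. Lrp5 and Lrp6 are single-pass co-receptors of the LDL receptor family. A Wnt that bridges a Frizzled and Lrp6 leads to phosphorylation of the Lrp6 tail, binding of Axin and stabilisation of beta-catenin, while some Frizzleds also act in planar cell polarity without Lrp5 or Lrp6. The PRR, encoded by Atp6ap2, has been described as an adaptor that links Frizzled and Lrp6 to the vacuolar proton pump. In the kidney, Wnt signals from the ureteric bud induce nephrons, and beta-catenin in the bud itself is needed for branching.

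Promoter sequence was matched for 4 of the 10 receptors, Fzd1, Fzd4, Fzd5 and Fzd7, in a RefSeq table of the mouse assembly GRCm38.p6. The 250 bases before the annotated start are printed for Fzd1, the receptor with the largest difference, and for Fzd7. The latter is a close relative of lower signal, whose Cy5 log2 difference was -0.06. Fzd1 lies at chr5:4758217-4758466 on the minus strand and Fzd7 at chr1:59481897-59482146 on the plus strand, each written 5′ to 3′ along the gene. Capitals mark the GC box GGGCGG and the core letters CTTTGA and CTTTGT that TCF/LEF factors, the DNA-binding partners of beta-catenin, can bind, on either strand.
Fzd1: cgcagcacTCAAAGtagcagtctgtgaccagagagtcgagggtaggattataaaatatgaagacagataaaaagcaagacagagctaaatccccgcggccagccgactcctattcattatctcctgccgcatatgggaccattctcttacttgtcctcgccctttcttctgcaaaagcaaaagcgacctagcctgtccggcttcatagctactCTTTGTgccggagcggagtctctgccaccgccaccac
Fzd7: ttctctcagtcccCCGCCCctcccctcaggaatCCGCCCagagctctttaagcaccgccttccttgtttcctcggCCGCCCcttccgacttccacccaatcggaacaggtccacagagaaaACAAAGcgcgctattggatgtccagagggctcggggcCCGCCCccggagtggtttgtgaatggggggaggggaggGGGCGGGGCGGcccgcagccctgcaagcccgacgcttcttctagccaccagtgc
The Fzd1 stretch held 0 GC boxes, 1 CTTTGA that began 242 bases before the start on the reverse strand, and 1 CTTTGT that began 37 bases before it. The Fzd7 stretch held 6 GC boxes, 2 of which share a base, and 1 CTTTGT 129 bases before the start on the reverse strand. The stretches of Fzd4 and Fzd5 held 7 and 9 GC boxes and 0 of the TCF/LEF letters. GC content was 51.2% in Fzd1, 65.2% in Fzd7, 72.8% in Fzd4 and 76.4% in Fzd5, so Fzd1 had the lowest GC content of the 4. Of 32851 mouse promoters of this length, 32.7% held GGGCGG and 27.6% held CTTTGA or CTTTGT. These matches are a description of the letters, and factor binding was not measured.

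The channels differed in quality. Between 18424 and 22713 of 41174 probes were well above background in Cy5. In Cy3 it was 14936 to 18574 on 3 arrays and 28 on KO_vs_WT replicate 1, whose Cy3 channel was therefore left out of the levels. The median Cy5 intensity of spike-in control spots was 5.60 on WT_self replicate 2, the array of pool 2, and 1786 to 4606 on the other 3. Their median Cy3 intensity was 50.4 on WT_self replicate 2 and 57.6 on KO_vs_WT replicate 2, both of pool 2. It was 893 on WT_self replicate 1 and 0.266 on KO_vs_WT replicate 1. Levels are described over the 7 remaining channels, 2 of knockout, 2 of pool 1 and 3 of pool 2. The knockout channels were Cy5 only, while wild type was also read in Cy3. A place outside all wild-type channels therefore mixes genotype with dye. Atp6ap2 was lower in both knockout channels, at 7.68 and 7.38 on the log2 scale, than in the 5 wild-type channels, at 7.82 to 8.06. Its Cy5 level was 0.686 of wild type, and the sources used here do not place its probe relative to the deleted part. With an adjusted p of 0.795 in limma, the targeted gene itself was not called in the Cy5 comparison described below. All 16 collecting duct and ureteric bud markers were well above background in Cy5 on all 4 arrays, with a summed log2 level of 15.9 and 16.0 in knockout, 15.9 in pool 1 and 15.7 in pool 2. Pool 2 stood apart. Its 8 proximal tubule markers summed to 15.5, against 12.0 and 11.3 in knockout and 12.5 in pool 1, with Lrp2 and Cubn of that list not matched to a probe. Its 6 loop and distal tubule markers summed to 13.2, against 11.1 and 10.95 in knockout and 11.3 in pool 1, with Pvalb above background on no array. The 4 erythroid markers summed to 12.0 in pool 2, against 13.3 and 12.8 in knockout and 13.5 in pool 1. Leukocyte markers summed to between 9.63 and 9.91 on the 4 arrays and intercalated cell markers to between 10.5 and 10.9. Each receptor is therefore given against each pool. In RNA of sorted cells, fewer cells of a type and less RNA per cell cannot be told apart.

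The main comparison set Cy5 of the 2 KO_vs_WT arrays against Cy5 of the 2 self arrays, so that 1 dye was compared throughout. Of 16120 genes tested with limma, 0% were called higher and 0% lower at a Benjamini-Hochberg adjusted p under 0.05, and 701 genes (4.35%) had an unadjusted p under 0.05. None of the 10 receptors was among the 701, the smallest unadjusted receptor p being 0.0730 for Fzd1 in limma before adjustment. Both knockout arrays lay above both pools for Fzd6 and Lrp5, 2 of 10, where 22.4% of all genes did. Both lay below both pools for Fzd1 and Lrp6, 2 of 10, where 17.2% of all genes did. Over the 7 channels, 2 of 10 receptors were above every wild-type channel, Fzd6 and Lrp5, against 12.2% of genes, and 1 of 10, Fzd1, was below every one, against 7.96% of genes. These shares were near those of all genes. The median receptor difference was -0.04 on the log2 scale, against 0.02 over all genes, with 3 receptors positive and 7 negative. Without WT_self replicate 1, that is against pool 2 alone, the receptor median was 0.02, against 0.05 over all genes. That fit keeps 1 wild-type array and holds no spread between the pools, so its calls are not used here. Median centring of the arrays in place of quantile normalisation put the median of all genes at 0.33, so that all 10 receptors were positive in absolute terms. Relative to that shift Fzd1 was at -0.29, Fzd6 at 0.18, Lrp5 at 0.32 and Lrp6 at -0.09, on the same sides as before, as were Fzd3, Fzd7 and Fzd8. The other 3 changed sides, to 0.15 for Fzd2, 0.19 for Fzd4 and -0.16 for Fzd5.

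**Figure D1:**
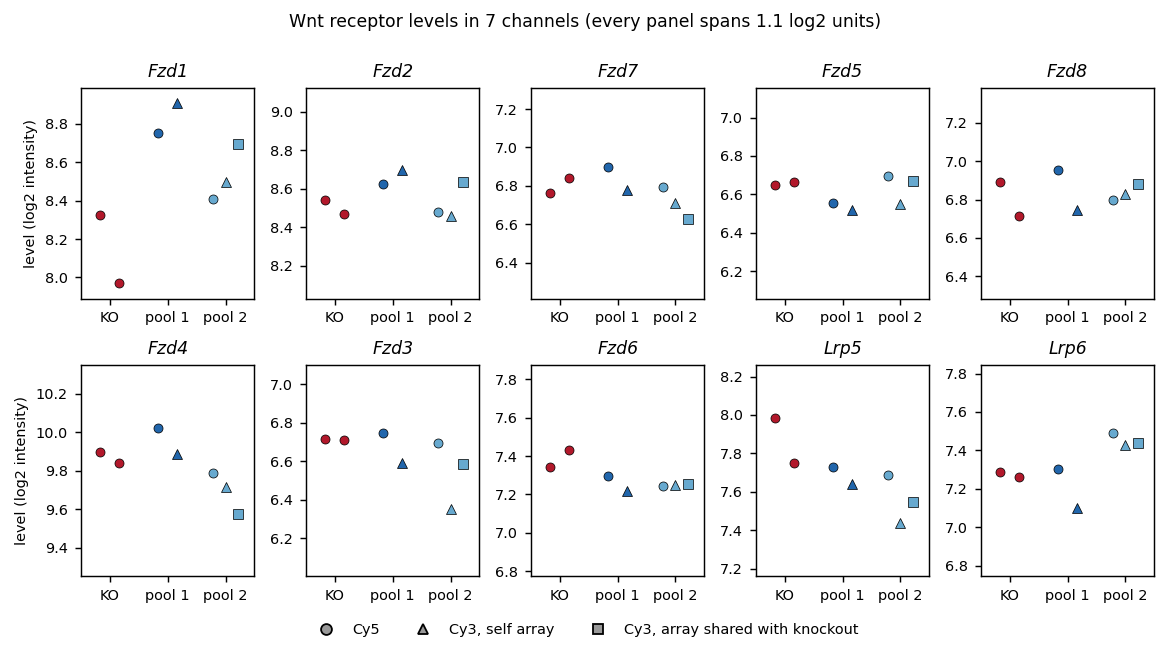
Log2 level of each receptor in the 7 channels with signal, normalised together, by RNA source on the horizontal axis. Circles are Cy5, triangles Cy3 of a self array and squares Cy3 of the array shared with knockout, and each panel spans the same number of log2 units around its own centre. The 2 Fzd1 knockout points lie below all 5 wild-type points, which span 8.41 to 8.91.

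Fzd1, Fzd2 and Fzd7 form the most closely related subgroup of the family and can all signal through beta-catenin. The Cy5 level of Fzd1 was 8.81 and 8.41 in the 2 knockout arrays, 9.27 in pool 1 and 8.90 in pool 2. Both knockout arrays were thus below both pools, but the knockout arrays differed from each other by 0.40 and the pools by 0.36. Without the first knockout array the difference was -0.67 and without the second -0.27. With both it was -0.47 ± 0.21 (SE, 2 against 2 arrays) with a 95% interval of -1.01 to 0.07 and an adjusted p of 0.795 in limma. This is a fold of 0.721, with an interval of 0.497 to 1.05. Against pool 1 alone the difference was -0.65 and against pool 2 alone -0.29, a fold of 0.635 and 0.818. Normalised over the 7 channels together, levels are on another scale, on which Fzd1 was 8.33 and 7.97 in knockout. On that scale its Cy5 level was 8.75 in pool 1 and 8.41 in pool 2. Its Cy3 level was 8.91 in pool 1 and 8.50 and 8.70 in pool 2, so pool 1 was the higher pool in both dyes. In the order of the channels, the 2 knockout channels were lowest, then pool 2, then pool 1, but the higher knockout channel, 8.33, was closer to the lowest pool 2 channel, 8.41, than the lowest and highest pool 2 channels were to each other.

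Other cell types moved beside Fzd1 as follows. The 12 stroma and pericyte markers, of which 9 were well above background on all 4 arrays, summed to 12.3 and 12.1 in knockout, 12.5 in pool 1 and 11.8 in pool 2. The stroma and pericyte sum of pool 2 was thus below that of either knockout array, as was the erythroid sum given above. A sum follows its brightest members, and the members of the stromal list differed. Col1a2 was 10.75 and 10.37 in knockout, 11.08 in pool 1 and 9.91 in pool 2. Rgs5 was 6.69 and 6.62 in knockout, 7.28 in pool 1 and 7.76 in pool 2. The 10 endothelial markers summed to 10.8 and 10.5 in knockout, 10.9 in pool 1 and 10.68 in pool 2, with Tek not above background anywhere. The nephron progenitor and early nephron markers summed to 10.9 and 10.6 in knockout against 11.1 and 10.9, with Six2, which defines the progenitors, not above background in any. Across the knockout arrays and pool 1, the sums of every marker list but collecting duct and ureteric bud ran in the order of the Fzd1 levels. In pool 2 the endothelial sum lay between the knockout arrays. The nephron sum of pool 2, 10.86, lay beside the 10.87 of the first knockout array. Within the nephron list, Lhx1 was 9.23 and 8.52 in knockout against 9.85 and 9.32 in the pools. Wnt4 was 7.88 and 7.86 against 7.64 and 7.23. The part of these cell types in the Fzd1 difference was not tested.

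Fzd2 was 9.05 and 8.97 in knockout against 9.14 and 8.98 in pools 1 and 2, so the second knockout array lay beside pool 2 and the first between the pools. The Cy5 difference was -0.05 ± 0.12, with a 95% interval of -0.37 to 0.27 and an adjusted p of 0.920 in limma. Fzd7 was 6.92 and 7.02 in knockout against 7.10 and 6.96, and the knockout arrays again straddled pool 2. Its difference was -0.06 ± 0.12, with an interval of -0.38 to 0.26. The second Fzd7 probe was not well above background in any channel. The brighter one was dim, with Cy5 background-subtracted intensities of 30.7 to 73.5, against 224 to 575 for Fzd1. At low intensity the added offset of 50 makes log2 differences smaller. Within the subgroup, Fzd1 alone lay outside the wild-type range, but a test of its difference from Fzd2 and Fzd7 was not made.

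Fzd5 and Fzd8 are a further related pair that can signal through beta-catenin with Lrp6. Both were dim here, and in Cy3 Fzd5 was well above background in 1 of 3 channels and Fzd8 in 2 of 3. Fzd5 was 6.76 and 6.78 in knockout against 6.62 and 6.82 in the pools, between them in both arrays, a difference of 0.05 ± 0.12. Fzd8 was 7.09 and 6.84 in knockout against 7.17 and 6.96, a difference of -0.10 ± 0.15. Neither pair of groups was separate. The 95% intervals reached from -0.28 to 0.37 for Fzd5 and from -0.49 to 0.30 for Fzd8.

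Fzd4, the receptor for the ligand Norrin as well as for Wnts, was bright in every channel, with the Cy5 background-subtracted intensity of its spot between 1135 and 2004. Its Cy5 log2 level was 10.46 and 10.40 in knockout, 10.59 in pool 1 and 10.35 in pool 2. Both knockout arrays lay between the pools, and the difference was -0.04 ± 0.13, with an interval of -0.39 to 0.32 and an adjusted p of 0.948 in limma. Pool 1 exceeded pool 2 by 0.24 in Cy5 and, normalised over the 7 channels, by 0.17 in Cy3, more than the knockout mean differed from the wild-type mean.

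Fzd3 and Fzd6 are the members best known for planar cell polarity. Fzd3 was 6.85 and 6.84 in knockout against 6.89 and 6.82 in the pools, a difference of -0.01 ± 0.11 with an interval of -0.30 to 0.28. Its other probe gave -0.17 in Cy5, and the 2 probes were well above background in 0 and 1 of the 3 Cy3 channels. Fzd6 was 7.67 and 7.78 in knockout against 7.61 in pool 1 and 7.54 in pool 2. Both knockout arrays were above both pools, and in the 7 channels they were 7.34 and 7.43 against 7.22 to 7.30. The difference was 0.14 ± 0.12, with an interval of -0.16 to 0.45, a fold of 1.11 and an adjusted p of 0.800 in limma. It was 0.11 against pool 1 and 0.18 against pool 2, and 0.09 without the second knockout array.

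Lrp5 was 8.43 and 8.16 in knockout against 8.14 in pool 1 and 8.08 in pool 2. Both knockout arrays were above both pools, and over the 7 channels they were 7.98 and 7.75 against 7.44 to 7.73. The second knockout array cleared pool 1 by less than the pools differed, and the knockout arrays differed by 0.27 from each other. The Cy5 difference was 0.18 ± 0.14, with an interval of -0.18 to 0.55, a fold of 1.14 and an adjusted p of 0.795 in limma. It was 0.05 without the first knockout array and 0.32 without the second.

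Lrp6, the co-receptor named with the PRR in the adaptor model, was 7.60 and 7.57 in knockout, 7.62 in pool 1 and 7.85 in pool 2. The knockout arrays lay just under pool 1 and further under pool 2. The Cy5 difference was -0.15 ± 0.13, with an interval of -0.50 to 0.19, a fold of 0.900 and an adjusted p of 0.805 in limma. Against pool 1 the difference was -0.03, and against pool 2 it was -0.27. Normalised over the 7 channels together, Lrp6 was 7.29 and 7.26 in knockout, and in Cy5 7.30 in pool 1 and 7.49 in pool 2. On that scale its Cy3 level was 7.10 in pool 1, below both knockout channels, and 7.43 and 7.44 in pool 2, above them. The knockout channels were Cy5, and on the self array of pool 1 the log2 ratio of Cy5 over Cy3 was 0.19 for Lrp6. Pool 2 exceeded pool 1 by 0.23 in Cy5 and 0.33 in Cy3. Pool 2 is also the pool with the high proximal and distal tubule markers, and their part in the Lrp6 difference was not tested.

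**Figure D2:**
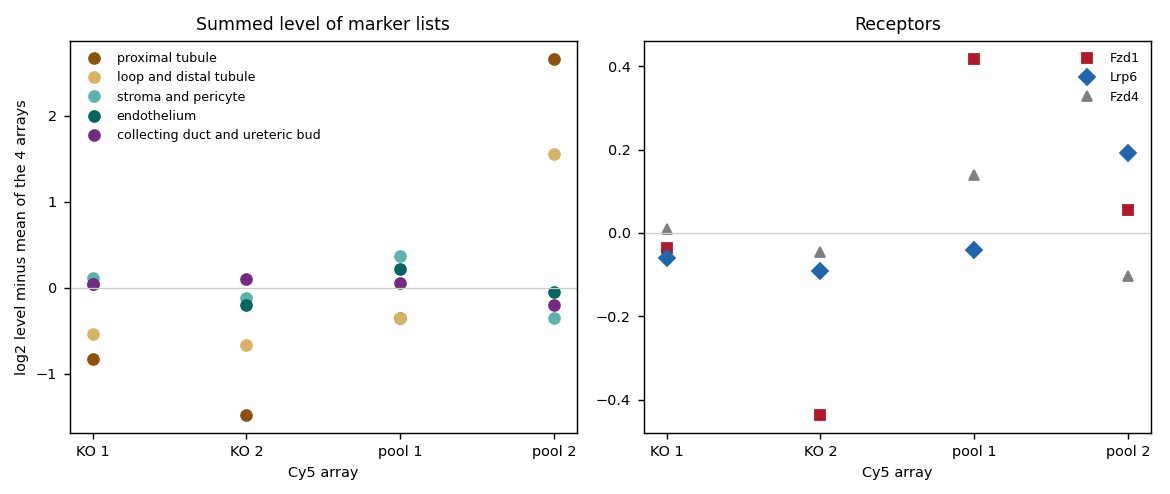
Left, summed level of 5 marker lists on each Cy5 array, and right, levels of Fzd1, Lrp6 and Fzd4 on the same arrays, all as log2 values minus the mean of the 4 arrays, with 1 point per array. Pool 2 is far above the rest in proximal tubule and in loop and distal tubule markers and highest in Lrp6, while Fzd1 is lowest in the second knockout array, at 8.41, and highest in pool 1, at 9.27.

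A second comparison used the 1 array on which knockout and wild-type RNA, that of pool 2, both gave signal. Its log2 ratio of Cy5 over Cy3 was set against the mean ratio of the self arrays, where both dyes carry the same RNA. The lone knockout array is assumed to vary like the self arrays, so the p-value measures technical spread only and holds for this array against pool 2. On that scale 17.1% of 17549 genes were called higher and 13.8% lower by limma with Benjamini-Hochberg adjustment, 30.9% in either direction. Of the 10 receptors 0 were called higher and 2 lower, Fzd1 and Lrp6. A share of 2 of 10 is not above the 30.9% of all genes called in either direction. This comparison shares its arrays with the Cy5 comparison and is no independent evidence.

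The log2 ratio of Fzd1 was -0.78 on the knockout array and -0.11 and -0.01 on the self arrays. The knockout ratio was far outside the self arrays, and the difference was -0.72 ± 0.12 (SE), a fold of 0.607 with a 95% interval of -0.96 to -0.48 in log2 and an adjusted p of 1.45e-06 in limma. Fzd1 lost the call with the scanner's processed signals (adjusted p = 0.193), with median centring (0.0739) and when the array without Cy3 signal was added (0.928), kept it in 4 others, and was negative in 9 of 9 alternatives, of which 2 allow no test, from -0.94 to -0.35. For comparison, Atp6ap2 differed by -0.81 on this array.

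The log2 ratio of Lrp6 was -0.19 on the knockout array, with 0.19 and 0.06 for the self arrays. The difference was -0.31 ± 0.12, a fold of 0.805 and an adjusted p of 0.0391 in limma. The knockout ratio was below both self arrays, by more than they differed from each other. It was negative in 9 of 9 alternatives, from -0.53 to -0.25. It kept the call in 2 of the 7 alternatives with a test, with an adjusted p from 0.0121 to 1 in limma, and it rests on pool 2, in which Lrp6 was high in both dyes. Fzd8 differed by -0.25 ± 0.12, with an adjusted p of 0.112, and Fzd2 by -0.20 ± 0.12, with an adjusted p of 0.215, both in limma and neither called. Fzd4, Fzd6 and Fzd7 had differences of 0.14 each, Lrp5 of 0.08, Fzd3 of 0.02 and Fzd5 of -0.03, and none of these 6 was called. The smallest adjusted p among the 6 was 0.386, for Fzd6, in limma. The receptor median was -0.0037 on this array, against 0.01 over all genes, with 5 receptors positive and 5 negative.

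**Figure D3:**
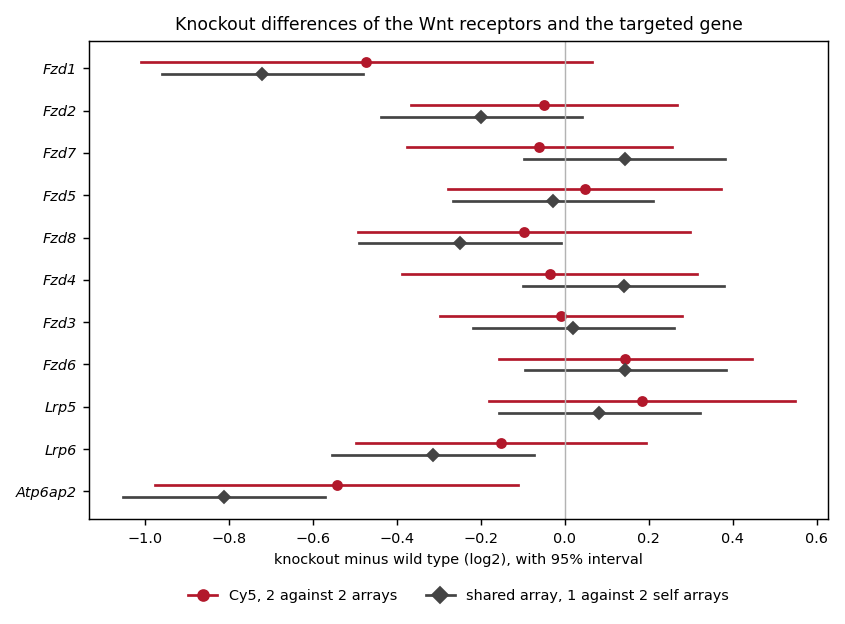
Knockout minus wild type (log2) for each receptor and for Atp6ap2, with circles for the Cy5 comparison of 2 against 2 arrays and diamonds for the shared array against the 2 self arrays, and bars for the 95% interval of each limma fit. The Cy5 interval of every receptor crosses 0, that of Fzd1 reaching from -1.01 to 0.07, and the 2 kinds of point share arrays.

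The genes around the receptors were counted in lists by role, and 0 members of any list were called in the Cy5 comparison by limma. Of all genes tested, 8918 had a positive Cy5 difference and 7202 a negative one, 22.4% lay above both pools and 17.2% below both. Of 14 other Wnt receptors and co-receptors that could be tested, of 16 listed, 13 had a negative Cy5 difference and 1 a positive one, with a median of -0.09. Of these, 4 were below both pools (the 3 that follow and Tspan12, a partner of Fzd4 in Norrin signalling) and 0 above, beside 17.2% and 22.4% of all genes, and the 1 positive gene was Adgra2. The 3 with the smallest unadjusted p were the glypicans Gpc6 and Gpc3, cell-surface proteoglycans that bind Wnts, and Fzd10, a further Frizzled. Gpc6 was 7.08 and 6.98 in knockout against 7.38 and 7.29, a difference of -0.30 ± 0.12. Gpc3 was 10.04 and 9.59 against 10.30 and 10.24, a difference of -0.46 ± 0.18. All 3 were lower in both knockout arrays than in both pools. Fzd10 was 8.37 and 8.27 against 8.48 and 8.80, a difference of -0.32 ± 0.15, and like Lrp6 it was highest in pool 2. The adjusted p of each of the 3 was 0.795 in limma. On the shared array 6 of the 14 were called lower and 1, Smo, higher, where 13.8% of all genes were called lower and 17.1% higher. Smo belongs to the Frizzled class but acts in Hedgehog signalling, so it is a member of this list and not a Wnt receptor.

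Among R-spondin receptors and the enzymes of Frizzled turnover, 3 of 9 listed genes could be tested. Rnf43, a membrane ubiquitin ligase that removes Frizzleds from the surface, was 9.35 and 9.70 in knockout against 9.26 in pool 1 and 8.74 in pool 2. Both knockout arrays were above both pools, the first of them only just above pool 1, and the difference was 0.53 ± 0.23 with an adjusted p of 0.795 in limma. Rspo1, a ligand that lowers this turnover, differed by -0.17 ± 0.32, and Lgr5, an R-spondin receptor, by 0.04 ± 0.13. On the shared array Rnf43 differed by 0.83 and was called, with an adjusted p of 4.96e-08 in limma.

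Of 9 secreted antagonists and Kremen proteins tested, 5 were positive and 4 negative, 1 above both pools, Dkk3, and 3 below, Sostdc1, Sfrp1 and Wif1, beside 22.4% and 17.2% of all genes. Dkk3, a secreted protein of the Dickkopf family, differed by 0.36 ± 0.16. Sostdc1 and Sfrp1, secreted inhibitors that bind Lrp6 and Wnts, differed by -0.88 ± 0.54 and -0.76 ± 0.47, and both were nearly equal in knockout and pool 1 and high in pool 2. Sostdc1 was 8.80 and 8.94 in knockout, 8.94 in pool 1 and 10.57 in pool 2. Of 9 chaperones and trafficking factors, 7 were positive and 2 negative, 3 above both pools and 1, Dab2, below, beside 22.4% and 17.2% of all genes. Cav1, the main protein of caveolae, through which Lrp6 can be internalised, was 9.04 and 9.18 in knockout against 8.82 and 8.43, a difference of 0.48 ± 0.17. Tpst2, a tyrosine sulphotransferase, differed by 0.40 ± 0.15, and Shisa4 by 0.27 ± 0.13. All 3 were higher in both knockout arrays than in both pools, and none passed the Cy5 test (adjusted p of 0.795 each, limma). Mesd, the chaperone that Lrp5 and Lrp6 need to reach the surface, was 10.41 and 10.38 in knockout, between the 10.65 of pool 1 and the 10.11 of pool 2.

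Of 16 cytoplasmic transducers tested, 10 were positive and 6 negative, 5 above both pools (Csnk1e, Dvl1, Csnk1d, Csnk1g1 and Axin1) and 2 below (Csnk1a1 and Grk5), near the 22.4% and 17.2% of all genes. Csnk1e, a kinase that acts on Dishevelled, was 12.17 and 12.19 in knockout against 11.81 and 11.55, a difference of 0.50 ± 0.14. Csnk1a1, a kinase that phosphorylates both beta-catenin and Lrp6, was 11.01 and 10.96 against 11.12 and 11.55, a difference of -0.35 ± 0.18. These 2 kinases lay on opposite sides of the pools. Dvl1, a Dishevelled that binds Frizzled, differed by 0.27 ± 0.15. Of 12 planar cell polarity partners, 7 were positive and 5 negative, with 4 above both pools, among them Celsr2, and 2 below, Vangl2 and Prickle1, beside the same 22.4% and 17.2%. The other 3 above both pools were Celsr3 at 0.26 ± 0.13, Scrib at 0.34 ± 0.22 and Daam1 at 0.22 ± 0.15. Of 7 other LDL receptor family genes, 4 were positive and 3 negative. Lrpap1, a chaperone of the family, differed by -0.60 ± 0.34 and was high in pool 2, while Lrp10 differed by 0.14 ± 0.12 and Vldlr by 0.22 ± 0.22. None of the genes of these lists passed the Cy5 test. On the shared array 5 of 17 transducers were called higher and 2 lower, and 3 of 12 polarity genes higher and 0 lower, where 17.1% of all genes were called higher and 13.8% lower. Medians of the Cy5 difference against pool 2 alone were 0.18 for the transducers and 0.20 for the polarity genes, against -0.01 and -0.02 for pool 1.

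**Figure D4:**
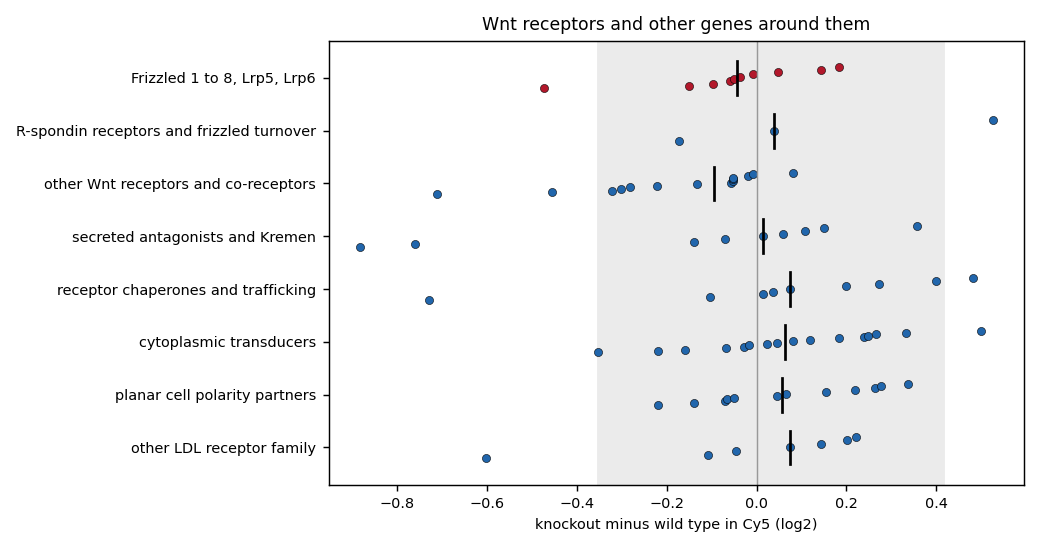
Cy5 difference, knockout minus wild type (log2), of each tested gene in the receptor set and in 7 lists of genes around it, with 1 point per gene, spread vertically for clarity, a bar at the list median and a grey band from the 5th to the 95th percentile of all genes. Of the 10 receptors Fzd1, at -0.47, alone lies outside the band, and 13 of 14 genes on the list of other Wnt receptors and co-receptors, which includes Smo, lie below 0.

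The receptors with the widest range over the 7 channels were Fzd1, at 0.93, and Lrp5, at 0.55, among the 7 that were well above background in all of them. Of 8219 genes well above background in all 7, those most like Fzd1 included Crkl (Pearson r = 0.990) and ccdc198 (0.978). Those most like Lrp5 were Dctn5 (0.987), Pafah1b1 (0.983) and Spsb4 (0.967). The 7 points share arrays, pools and labelling reactions, and with so many genes searched some high values are found for any gene, so the likeness is a description of these channels.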

How the data were processed

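RNA of sorted cells was hybridised to 4 Agilent two-colour arrays. Agilent Feature Extraction 10.7.3.1 quantified the scan, per the file headers. For both dyes the deposited files hold a median intensity per spot and for its local background, background-subtracted and processed intensities, and 0 or 1 quality flags. They also hold the log10 of processed Cy5 over processed Cy3 as the authors deposited it, and the deposited series table was equal to this on 45018 of 45018 spots of each array. Control spots were removed, leaving 43379 spots and 41174 probes, of which 22944 matched 16355 symbols through RefSeq accessions. Median intensities were corrected with normexp (offset 50). Cy5 was quantile normalised over 4 arrays, the 7 channels together for levels, and log2 ratios were loess normalised within arrays. Spots in a dark patch of WT_self replicate 1 (278) were left out of the Cy5 comparison and the levels but not of the log2 ratios, and no receptor probe lay there. Probes entered the Cy5 comparison if well above background on both arrays of 1 genotype, and the shared-array comparison if so in either channel of KO_vs_WT replicate 2. The brightest probe stood for a gene. Tests used limma 3.58.1 in R 4.3.3, two-sided, with Benjamini-Hochberg adjustment over all genes at 0.05, and were tested on simulated data. No spot was saturated. Correlations across genes are descriptions, since genes are not independent replicates. Summed marker levels are the log2 of the summed Cy5 levels of a list. No test set a probe's level against another's, and intensities of different probes are given only to describe how bright their spots were. The receptors were named whatever their values, and of each other list the 3 tested genes of smallest unadjusted Cy5 p, while Mesd and genes named only to spell out a count or where a list's markers lay were chosen after their values were seen. The 2 receptors of widest range over 7 channels were given their 3 most alike genes, of which 1 is not reported here. The members and lists were chosen with earlier results of these data known. Alternatives were other background corrections, normalisations, filters, probe rules, channels and left-out arrays.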

Additional observations from a re-analysis of the deposited data

How the results depend on the processing

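The Cy5 comparison called 0 genes under every alternative but the one without WT_self replicate 1 (range over left-out arrays 0 to 4220, of which 2522 were higher and 1698 lower, against pool 2 alone), and no receptor was called under any. The receptor median was 0.202 under median centring of Cy5 arrays, which put the median over all genes at 0.33, and ranged from -0.0877 to 0.0194 over left-out arrays. Median centring turned the sign of Fzd1 (0.0422), Fzd2 (0.481), Fzd3 (0.0971), Fzd4 (0.521), Fzd7 (0.0885), Fzd8 (0.0662) and Lrp6 (0.238), all but Fzd2 and Fzd4 below that shift of all genes. Over left-out arrays the sign turned for 6 receptors, which ranged from -0.128 to 0.0284 (Fzd2), -0.0475 to 0.0311 (Fzd3), -0.158 to 0.0858 (Fzd4), -0.0486 to 0.144 (Fzd5), -0.129 to 0.00898 (Fzd7) and -0.221 to 0.0258 (Fzd8). Without WT_self replicate 1 all 6 turned, Fzd8 to 0.0104. Fzd6 and Lrp5 were positive in 14 of 14 alternatives, from 0.0908 to 0.508 and from 0.0507 to 0.645, each lowest with a knockout array left out. With the replicate block the median was -0.0429 and 0 genes were called, and the deviations of same-numbered arrays correlated at 0.0388, so the numbers gave no pairing.

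The shared-array comparison called 0 genes with processed signals, 0 with both KO_vs_WT arrays, 735 with median centring (200 higher and 535 lower, 27.2% higher against 55.3%) and 1839 with an offset of 10, a setting chosen after the data were seen, against 5419. The receptor median was -0.327 with processed signals, -0.175 with no background correction, -0.0748 with median centring and -0.0480 with both KO_vs_WT arrays, and -0.00943 to 0.00201 over left-out self arrays. Signs turned with processed signals for Fzd3 (-0.299) and Fzd7 (-0.355), with no background correction for Fzd3 (-0.150), with median centring for Fzd4 (-0.155) and Fzd5 (0.0395), and with both KO_vs_WT arrays for Fzd3 (-0.0242), Fzd4 (-0.00349) and Lrp5 (-0.0420). Lrp6 lost its call with processed signals (-0.532, adjusted p = 0.344, limma), median centring (-0.337, 1.00), no filter on dim probes (-0.313, 0.0795), both KO_vs_WT arrays (-0.247, 0.928) and an offset of 10 (-0.470, 0.163). The cause of these changes was not tested. With 2 arrays a genotype, the 95% intervals were widest for Fzd1 (-1.01 to 0.0652) and narrowest for Fzd3 (-0.297 to 0.281). Receptor differences within these intervals were not excluded. The Cy5 test also left larger differences uncalled, such as -2.45 for the proximal tubule marker Fbp1. A missing call there does not mean that a difference was small. Fzd3, Fzd5 and Fzd8 were near background in Cy3.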
